A study of Mus musculus with 4 samples.

Results

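The 38 genes described here encode proteins of the Z disc and the M band of the heart muscle sarcomere, together with factors that assemble, stabilise or degrade it. They were taken by gene symbol from the 32285 mouse genes of the count matrices, and all 38 were present in each of the 4 libraries and passed the filter on low counts. The sarcomere is the contractile unit of striated muscle: actin filaments are anchored in the Z disc, myosin filaments are cross-linked at the M band, and titin spans between them. Z disc proteins with LIM and PDZ domains also sense stretch and carry signals to the nucleus, and ubiquitin ligases of the MuRF and atrogin type mark sarcomere proteins for degradation. Between birth and weaning, mouse cardiomyocytes largely leave the cell cycle and build mature sarcomeres, and dividing cardiomyocytes take their sarcomeres apart.

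The libraries held single nuclei of whole hearts of wild-type mice harvested at postnatal day 12, with 1 library in each of 4 groups. The YAP5SA groups had received an AAV9 vector at postnatal day 7 that carries YAP5SA, a form of the transcriptional co-activator YAP that Hippo pathway kinases cannot switch off, behind the cardiomyocyte promoter of cardiac troponin T, and the controls had received saline, so that virus and cargo cannot be told apart. For 5 days their mothers ate either chow or a diet high in fat (HFD). The groups follow the sample titles; the treatment labels instead give HFD for YAP5SA + chow and chow for control + HFD, and if they hold, vector and diet cannot be told apart. How many hearts went into a library is not stated in the labels, so that spread between the 2 libraries of an arm may be technical as well as biological. Values of a gene are given as UMIs per 1000000 cardiomyocyte UMIs (CPM) in the order control + chow, YAP5SA + chow, control + HFD and YAP5SA + HFD. For a cluster or another class of nuclei, CPM is per 1000000 UMIs of that cluster or class.

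Of 32143 nuclei kept, 16391 lay in 8 clusters named cardiomyocyte-like, 1 of them atrial (3536, 4774, 3006 and 5075 nuclei, with 23269104, 27214238, 20464740 and 28653462 UMIs). Mouse Yap1 stood at 136, 107, 128 and 120.4 CPM in these nuclei and did not pass the test; the sources used here do not say whether vector reads count towards it. The YAP5SA + chow library held 260 UMIs of Xist and 3964 of the Y-linked Ddx3y, whereas the other libraries held at least 92725 of Xist and at most 15 of Ddx3y, so that YAP5SA + chow stands apart from the rest in sex. Of the 15 cardiomyocyte markers 12 were lower in both YAP5SA libraries than in both controls, with sums of 68025, 52645, 73972 and 51034 CPM. In the same nuclei 4 of 5 smooth muscle markers were higher in both YAP5SA libraries, with sums of 163, 702, 197 and 186 CPM, and 4 of 6 endocardial markers were, with sums of 30.3, 98.9, 34.0 and 73.0 CPM. Fibroblast markers summed to 277, 213, 417 and 295 CPM, with 5 of 9 below both controls. No marker of these 4 lists was at 0, and the part of such shifts in the results below was not tested.

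**Figure D1:**
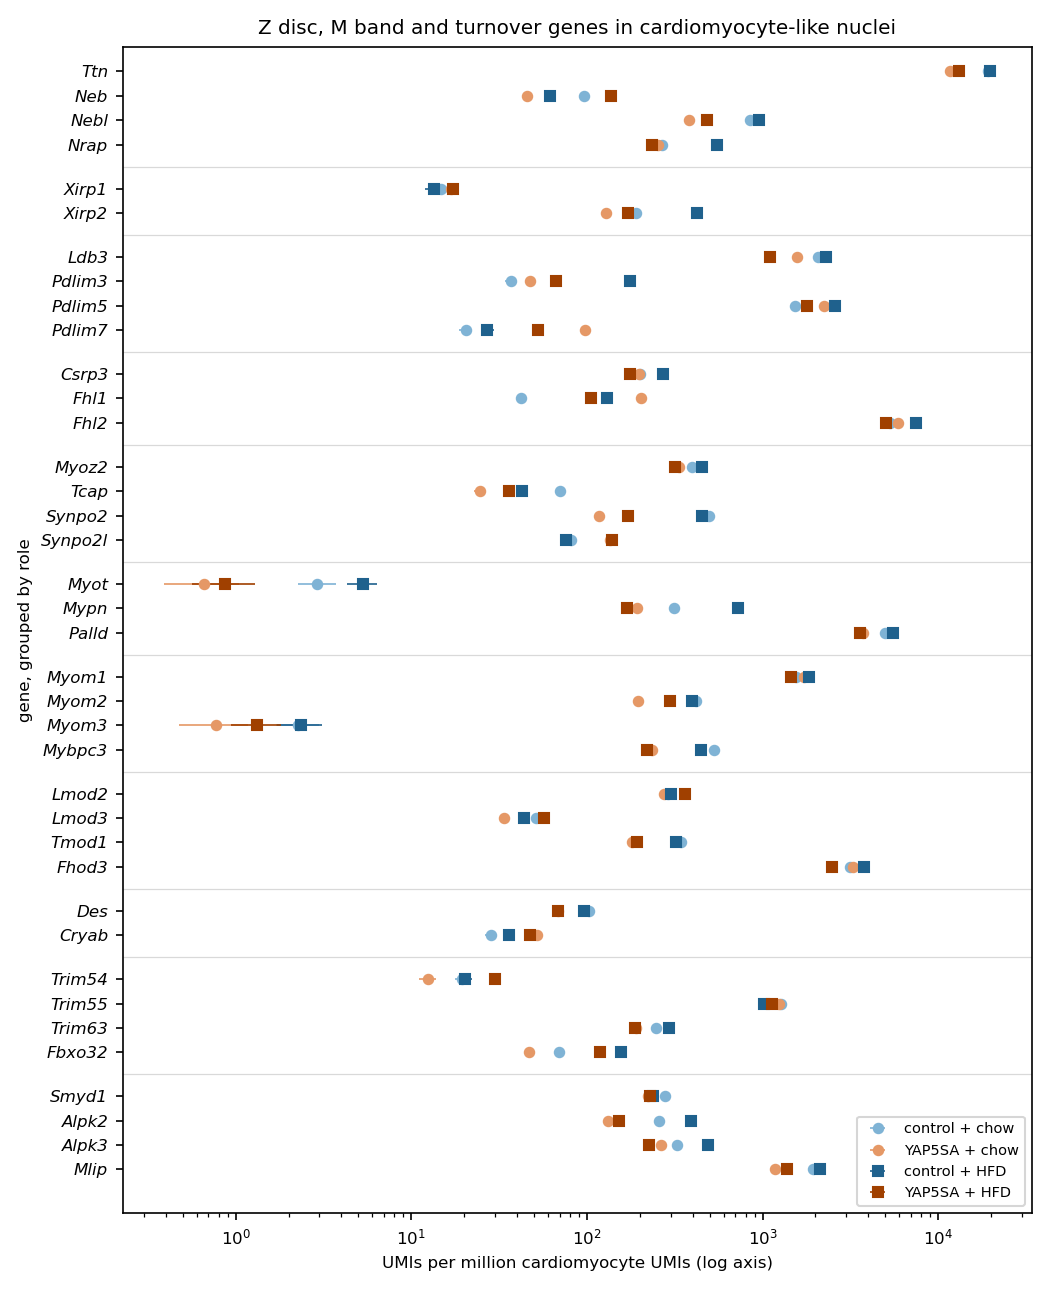
Level of each of the 38 genes in cardiomyocyte-like nuclei of the 4 libraries, as CPM on a log axis, with bars for the 95% Poisson interval, which covers counting error only. Circles are chow and squares HFD libraries, blue controls and orange YAP5SA. In 22 genes both YAP5SA libraries lie below both controls, in 4 above both.

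Sarcomere genes were mostly lower in YAP5SA cardiomyocytes, and 6 of the 38 fell past the test. These were Synpo2, Mybpc3, Nebl, Alpk2, Tmod1 and Myot, while Pdlim7 and Synpo2l rose (edgeR's quasi-likelihood test over all genes, Benjamini-Hochberg adjusted p under 0.05, 2 YAP5SA against 2 control libraries). Over all 16889 genes tested, 7.93% rose and 4.39% fell, against 2 (5.26%) and 6 (15.8%) of the 38. The 38 were chosen with earlier results of these data known, so that setting them against all genes is descriptive. With scaling by library totals alone, 1374 of all genes rose and 452 fell, in place of 1339 and 742, while the same 2 and 6 of the 38 were called. The median log2 fold change was −0.58 over the 38 genes, with 31 below 0, and 0.039 over all genes tested. Both YAP5SA libraries lay below both controls in 22 of the 38 (57.9%), where 23.6% of all genes did, and above both in 4 (10.5%), where 35.6% of all genes did.

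The counts depended on the nuclei and the tool. DESeq2 called 15 of the 38 lower, among them Ttn, Xirp2, Ldb3, Mypn, Tcap, Des and Mlip (background 6.88%), and the same 2 higher (background 9.55%). Mybpc3 and Synpo2 passed under every one of the 17 alternatives of this test. Without the Cemip-led cluster described below, 0 rose and 4 fell (background 3.7% and 1.7%), namely Nebl, Mybpc3, Synpo2 and Myot. Over the 3 clusters with at least 100 nuclei of each library, 0 rose and 4 fell (background 7.69% and 3.69%). Nebl, Mybpc3 and Synpo2 of the 6 were among them, and Myom2 was new. Alpk2 and Tmod1 were called in neither of these settings, and Myot was not called over the shared clusters. When 1 library was left out, 3 fell without control + HFD (Mybpc3, Tcap and Synpo2; background 2.03%) and 10 fell without control + chow (background 2.94%), and 0 rose without YAP5SA + chow (background 8.08%).

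**Figure D2:**
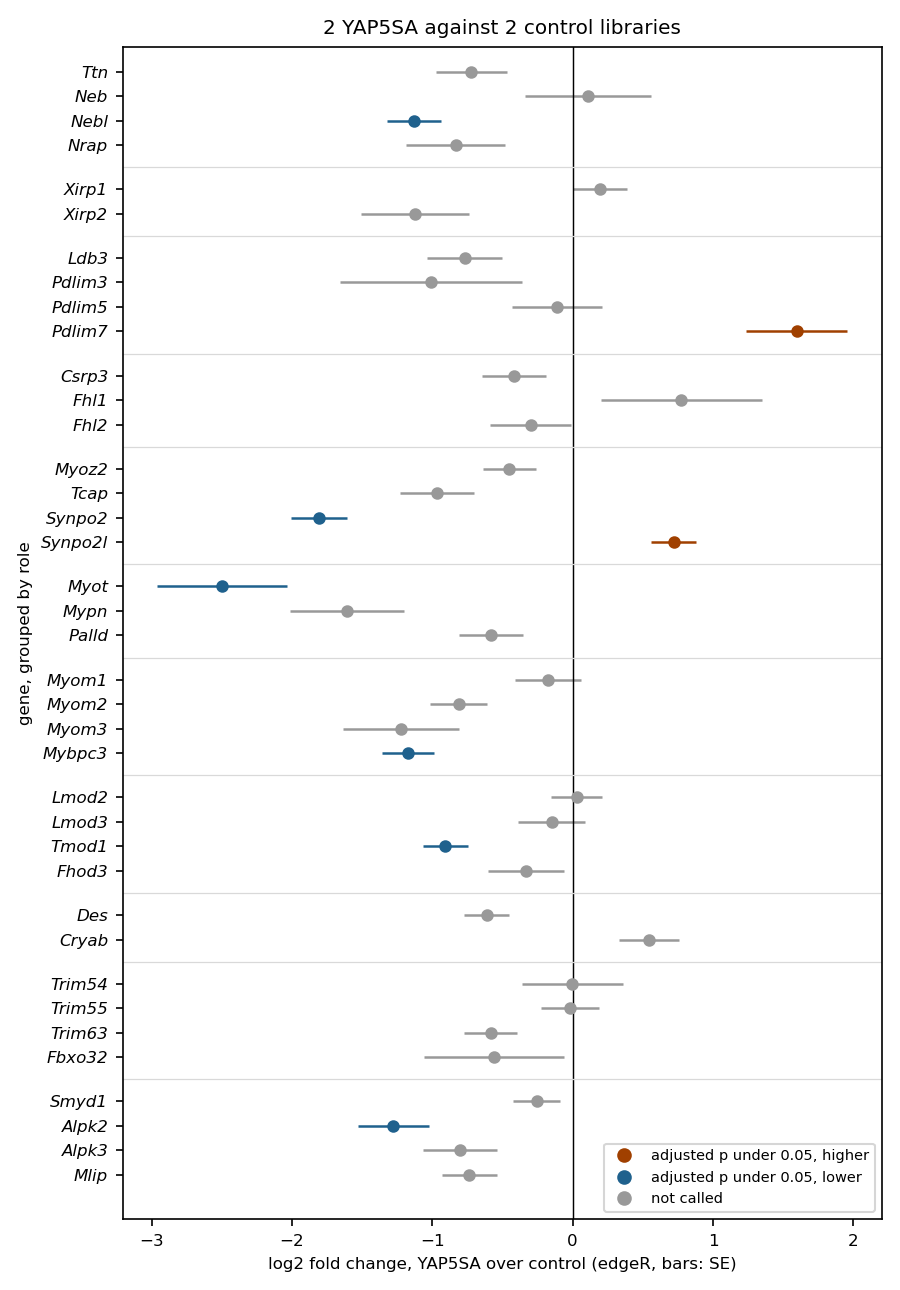
Log2 fold change of each gene in cardiomyocyte-like nuclei, YAP5SA over control (2 against 2 libraries, edgeR), with bars for 1 SE. Blue points fell and orange points rose at an adjusted p under 0.05, and grey points were not called; the lowest value is that of Myot at −2.50 and the highest that of Pdlim7 at 1.60.

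Among the genes of titin and the nebulin family, which act as templates of the filaments, Nebl fell and the other 3 did not pass. Nebl (nebulette, a cardiac nebulin relative that ties thin filaments to the Z disc; ENSMUSG00000053702, chromosome 2, 17343909 to 17731464, minus strand) stood at 846, 383, 948 and 485 CPM. Both YAP5SA libraries were below both controls (log2 fold change −1.13, SE 0.19, adjusted p = 0.0171); without control + HFD the adjusted p was 0.0595. Ttn (titin, the giant protein that spans from the Z disc to the M band; ENSMUSG00000051747, chromosome 2, 76703980 to 76982547, minus strand) stood at 19099.6, 11726, 19813 and 13188 CPM. The arms did not overlap, but the fold change did not pass (log2 fold change −0.72, SE 0.25, adjusted p = 0.114). Neb (nebulin, the thin filament ruler of skeletal muscle) stood at 96.6, 45.6, 61.4 and 137 CPM, lowest in YAP5SA + chow and highest in YAP5SA + HFD (adjusted p = 0.905). Nrap, which takes part in the assembly of new myofibrils, stood at 268, 253, 552 and 235 CPM. It was high in control + HFD and nearly level in the other libraries (adjusted p = 0.175).

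The Z disc adaptors divided. Synpo2 (synaptopodin 2 or myopodin, an actin bundler of the Z disc; ENSMUSG00000050315, chromosome 3, 123076519 to 123236149, minus strand) stood at 497, 118, 453 and 170.3 CPM. It had the lowest adjusted p of the 38 (log2 fold change −1.80, SE 0.20, adjusted p = 0.00462). Its relative Synpo2l (ENSMUSG00000039376, chromosome 14, 20658946 to 20668354, minus strand), also an actin-binding protein of the Z disc, stood at 81.5, 135, 76.4 and 139 CPM. Both YAP5SA libraries were above both controls (log2 fold change 0.72, SE 0.16, adjusted p = 0.0358). That call was lost in 6 of 17 alternatives, among them those without control + chow, control + HFD or YAP5SA + chow (adjusted p = 0.2, 0.224 and 0.0538). Tcap (telethonin, which caps titin at the Z disc) stood at 69.8, 24.7, 43.0 and 36.2 CPM. Control + chow was far above the other libraries (adjusted p = 0.063). Myoz2, a calcineurin-binding Z disc protein, stood at 394, 333, 449.7 and 316 CPM and did not pass (adjusted p = 0.17).

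The myotilin, myopalladin and palladin genes were lower in both YAP5SA libraries than in both controls, and 1 of the 3 passed. Myot (myotilin, which cross-links actin in the Z disc; ENSMUSG00000024471, chromosome 18, 44334074 to 44355724, plus strand) was counted in 68, 18, 108 and 25 UMIs, or 2.92, 0.661, 5.28 and 0.872 CPM. Those counts are small, and the call (log2 fold change −2.50, SE 0.46, adjusted p = 0.0218) was lost without control + HFD (adjusted p = 0.0759). Mypn (myopalladin, which holds nebulette and actinin together) stood at 314, 192, 726 and 169 CPM. Control + HFD was highest and the test was narrowly missed (log2 fold change −1.61, SE 0.41, adjusted p = 0.0508). Palld (palladin, an actin scaffold found in many cell types) stood at 4961, 3741, 5489.5 and 3606 CPM (adjusted p = 0.146).

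Of the M band and thick filament genes, Mybpc3 fell. Mybpc3 (cardiac myosin-binding protein C, which regulates cross-bridges and is mutated in hypertrophic cardiomyopathy; ENSMUSG00000002100, chromosome 2, 91118144 to 91136516, plus strand) stood at 529.5, 234, 444 and 219 CPM. Both YAP5SA libraries were well below both controls (log2 fold change −1.17, SE 0.18, adjusted p = 0.0132). Myom2 (M-protein, a cross-linker of the M band) stood at 419, 196, 395 and 296 CPM and just missed the threshold (log2 fold change −0.81, SE 0.20, adjusted p = 0.0502), with a lower value in YAP5SA + chow than in YAP5SA + HFD. Myom1 (myomesin, the main M band cross-linker) stood at 1557, 1710.4, 1837 and 1446 CPM. Its arms overlapped (adjusted p = 0.67). Myom3 was counted in only 53, 21, 48 and 38 UMIs and did not pass (adjusted p = 0.106).

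At the thin filament ends Tmod1 fell and the leiomodins did not pass. Tmod1 (tropomodulin 1, which caps the pointed end of actin filaments; ENSMUSG00000028328, chromosome 4, 46038935 to 46116032, plus strand) stood at 345, 180.5, 322 and 194 CPM. Both YAP5SA libraries were below both controls (log2 fold change −0.91, SE 0.16, adjusted p = 0.0189), and the call was lost without control + chow (adjusted p = 0.0737), without control + HFD (adjusted p = 0.0668) and without the Cemip-led cluster (adjusted p = 0.0665). Lmod2, a leiomodin that lengthens thin filaments where tropomodulin caps them, stood at 289.96, 274, 299.8 and 363 CPM. It was lowest in YAP5SA + chow and highest in YAP5SA + HFD, with the controls between them (log2 fold change 0.028, SE 0.18, adjusted p = 0.938). Lmod3 stood at 51.4, 33.9, 43.7 and 57.2 CPM and Fhod3, a formin needed for cardiac sarcomere assembly, at 3154, 3279, 3782 and 2491 CPM, both with overlapping arms (adjusted p = 0.728 and 0.46).

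Promoter windows of 3 genes that fell and 2 that rose are shown because they let both directions be set beside the letters of TEAD, the DNA-binding partner of YAP. RefSeq windows (build GRCm38.p6, 250 bases before to 50 after a start) were found for 27 of the 38 genes, 39 windows in all, and 4 motifs were searched on both strands: the TEAD letters GGAATG, the GATA letters AGATAA, the MEF2 motif and the CArG box of serum response factor. Capitals mark the matches.
Synpo2 (chr3:123236100-123236399, minus strand): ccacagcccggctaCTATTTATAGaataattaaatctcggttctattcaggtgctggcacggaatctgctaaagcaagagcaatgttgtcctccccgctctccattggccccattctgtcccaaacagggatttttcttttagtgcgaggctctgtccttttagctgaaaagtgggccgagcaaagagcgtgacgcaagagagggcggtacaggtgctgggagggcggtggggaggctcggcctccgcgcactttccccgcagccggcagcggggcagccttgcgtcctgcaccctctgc
Mybpc3 (chr2:91117894-91118193, plus strand): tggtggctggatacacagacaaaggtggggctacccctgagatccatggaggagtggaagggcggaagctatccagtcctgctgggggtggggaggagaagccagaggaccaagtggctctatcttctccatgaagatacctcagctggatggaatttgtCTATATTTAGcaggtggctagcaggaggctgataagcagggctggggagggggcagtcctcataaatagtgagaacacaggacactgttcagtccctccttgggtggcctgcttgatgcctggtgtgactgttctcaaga
Tmod1 (chr4:46038972-46039271, plus strand): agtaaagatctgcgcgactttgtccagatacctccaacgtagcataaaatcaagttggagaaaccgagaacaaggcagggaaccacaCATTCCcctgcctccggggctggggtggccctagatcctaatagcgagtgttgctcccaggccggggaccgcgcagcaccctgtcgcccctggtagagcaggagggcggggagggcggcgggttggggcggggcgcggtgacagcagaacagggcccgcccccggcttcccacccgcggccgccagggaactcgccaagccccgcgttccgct
Synpo2l (chr14:20664525-20664824, minus strand): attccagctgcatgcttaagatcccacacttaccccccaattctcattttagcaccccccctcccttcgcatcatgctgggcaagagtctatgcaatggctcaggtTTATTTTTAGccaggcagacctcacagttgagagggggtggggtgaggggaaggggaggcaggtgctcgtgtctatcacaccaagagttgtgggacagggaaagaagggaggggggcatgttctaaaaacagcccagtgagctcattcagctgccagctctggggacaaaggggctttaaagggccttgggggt
Pdlim7 (chr13:55513397-55513696, minus strand): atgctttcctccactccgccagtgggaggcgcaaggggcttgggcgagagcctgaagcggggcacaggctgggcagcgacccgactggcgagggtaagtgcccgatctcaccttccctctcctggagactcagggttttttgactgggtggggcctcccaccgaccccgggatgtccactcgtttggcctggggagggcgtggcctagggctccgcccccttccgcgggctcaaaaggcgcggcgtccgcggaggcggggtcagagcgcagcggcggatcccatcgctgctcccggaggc
The Synpo2 and Mybpc3 windows, of genes that fell, and this Synpo2l window, of a gene that rose, each held 1 MEF2 match, at 236, 90 and 144 bases before the start. A TEAD match lay 163 bases before the Tmod1 start, and the Pdlim7 window held no match of the 4 motifs. Nebl, which fell and has 4 windows that are not printed, had a TEAD match 230 bases before 1 start, GATA matches 140 bases before the same start and 34 before another, and a CArG box 162 bases before the start of a further window. Of the called genes with a window, 2 of 4 that fell and 0 of 2 that rose held TEAD letters, and 2 of 4 and 1 of 2 held a MEF2 match. Such a gene counts once if any of its windows matched. By that count 9 of the 27 genes held TEAD letters and 9 a MEF2 match. The share over all genes is not given here, and the shares that follow are of windows. Among the windows of the 38 genes, 10 of 39 (25.6%) held a MEF2 match, against 3.19% of all 32851 windows, and 7 (17.9%) held a CArG box, against 1.63%. TEAD letters stood in 10 of 39 windows (25.6%), against 14.7% of all, and GATA letters in 6 (15.4%), against 11.2%. No 2 different motifs overlapped in these windows, some windows of 1 gene overlap each other, and a match is a run of letters and not a site shown to be bound.

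The PDZ-LIM family, which joins Z disc proteins to kinases, held the largest rise. Pdlim7 (enigma, an actin-associated adaptor also of non-muscle cells; ENSMUSG00000021493, chromosome 13, 55495795 to 55513676, minus strand) stood at 20.4, 96.9, 27.1 and 52.5 CPM. YAP5SA + chow was highest and both YAP5SA libraries exceeded both controls (log2 fold change 1.60, SE 0.36, adjusted p = 0.0382), but without YAP5SA + chow the adjusted p was 0.0534 and over the shared clusters it was 0.0993. Ldb3 (cypher or ZASP, the main cardiac member, which binds actinin) stood at 2080.1, 1573, 2287 and 1101 CPM. It was lowest in YAP5SA + HFD, with no overlap of the arms (log2 fold change −0.77, SE 0.27, adjusted p = 0.115). Pdlim3 (actinin-associated LIM protein) stood at 36.7, 47.4, 177 and 66.9 CPM. It was high only in control + HFD among the 4 libraries (adjusted p = 0.35). Pdlim5 (enigma homolog) stood at 1533, 2222, 2580.05 and 1789.6 CPM, with the controls at both ends of the range (adjusted p = 0.856).

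Of the LIM-only genes none passed. Fhl1 (a titin-binding stress sensor) stood at 42.1, 204, 131 and 106 CPM. Its 2 extremes were both chow libraries, with YAP5SA + chow highest (log2 fold change 0.78, SE 0.57, adjusted p = 0.419); without control + HFD it would be called at a log2 fold change of 1.86 (adjusted p = 0.00312). Fhl2, the most strongly cardiac FHL gene, stood at 5330.2, 5896, 7472 and 5048 CPM and Csrp3 (muscle LIM protein) at 201, 198, 272 and 175 CPM (adjusted p = 0.537 and 0.279). Both were highest in control + HFD.

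The Xin genes, whose products bind actin at the intercalated disc, did not pass. Xirp2 stood at 189, 128, 422 and 172 CPM. Control + HFD was more than 2-fold above the other libraries (log2 fold change −1.13, SE 0.39, adjusted p = 0.109). Xirp1 stood at 14.8, 16.9, 13.5 and 17.2 CPM (adjusted p = 0.551); it overlaps Cx3cr1 on the same strand, so that its reads may not all be its own.

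Desmin and alphaB-crystallin lay in opposite directions. Des (desmin, the intermediate filament that links Z discs) stood at 102, 68.3, 96.3 and 68.2 CPM, with both YAP5SA libraries at the same lower level (log2 fold change −0.61, SE 0.16, adjusted p = 0.0557). Cryab (alphaB-crystallin, the small chaperone that guards desmin) stood at 28.4, 51.7, 36.2 and 47.5 CPM, with both YAP5SA libraries above both controls (log2 fold change 0.54, SE 0.21, adjusted p = 0.15). Neither passed.

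Of the 4 ubiquitin ligase genes none passed. Trim63 (MuRF1) stood at 246, 190.4, 292 and 187 CPM, lower in both YAP5SA libraries (log2 fold change −0.59, SE 0.19, adjusted p = 0.0933). Fbxo32 (atrogin-1), the F-box ligase of muscle atrophy, stood at 69.6, 47.0, 156 and 119 CPM. It followed diet rather than vector in order, with both HFD libraries above both chow libraries (adjusted p = 0.503 for vector). Trim55 (MuRF2) stood at 1273, 1238, 1016 and 1128 CPM and Trim54 (MuRF3) at 19.5, 12.4, 20.2 and 30.1 CPM, with overlapping arms (adjusted p = 0.967 and 0.997); Trim55 overlaps a second gene on its strand.

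All 4 genes of sarcomere assembly and signalling were lower in both YAP5SA libraries, and 1 fell. Alpk2 (an alpha-kinase of cardiac development; ENSMUSG00000032845, chromosome 18, 65265529 to 65394066, minus strand) stood at 257, 131, 392 and 153 CPM. Its arms were well apart (log2 fold change −1.28, SE 0.25, adjusted p = 0.0262), but without control + HFD the adjusted p was 0.0693 and over the shared clusters 0.183. Alpk3, a kinase-like protein of the M band, stood at 325, 265, 486 and 225 CPM (log2 fold change −0.80, SE 0.27, adjusted p = 0.102). It overlaps the transcript Platr32 on its strand. Mlip, a lamin-interacting protein of heart, stood at 1936, 1180.1, 2108 and 1385 CPM (log2 fold change −0.74, SE 0.20, adjusted p = 0.0595). Smyd1, the methyltransferase that helps myosin fold, stood at 278, 223, 237 and 229.7 CPM, the smallest separation of the 4 (adjusted p = 0.353).

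Each diet was also compared as 1 library against 1, which has no replicate check. At a mean of at least 10 CPM, 36 of the 38 genes were compared, and the median log2 fold of YAP5SA over control was −0.39 on chow and −0.55 on HFD, against −0.057 and 0.13 over all 8470 genes at that level. On chow 6 were at least 2-fold lower (background 7.06%) and 2 at least 2-fold higher (background 8.61%). On HFD 9 were at least 2-fold lower (background 3.61%) and 1 at least 2-fold higher (background 10.8%). Mybpc3 and Synpo2 were at least 2-fold lower under both diets. Synpo2 had a log2 fold of −2.08 (−2.13 to −2.02) under chow and −1.41 (−1.46 to −1.36) under HFD, where the brackets give exact 95% intervals of counting error only. Mybpc3 had −1.18 (−1.22 to −1.14) under chow and −1.02 (−1.07 to −0.98) under HFD, and Nebl −1.14 under chow and −0.97 under HFD. Nrap, Xirp2, Ldb3, Pdlim3, Mypn, Alpk2 and Alpk3 passed 2-fold lower on HFD only, which is no test that the diets differ. Mypn, for example, had −0.71 (−0.76 to −0.66) under chow and −2.10 (−2.15 to −2.05) under HFD.

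The control libraries themselves differed between diets in several of these genes. Of the 36, 6 were at least 2-fold higher in control + HFD than in control + chow (Nrap, Xirp2, Pdlim3, Mypn, Fhl1 and Fbxo32; background 1.42%) and 0 at least 2-fold lower (background 0.697%). Pdlim3 had the largest such log2 fold, 2.27 (2.16 to 2.38). Within YAP5SA, Neb, Trim54 and Fbxo32 were at least 2-fold higher on HFD (background 3.94%) and 0 were at least 2-fold lower (background 1.06%), with log2 folds of 1.59, 1.28 and 1.34. In the edgeR test of HFD against chow with vector as a second term, 0.0% of all genes passed, and 0 of the 38; 721 of all genes and 3 of the 38 had an unadjusted p under 0.05. DESeq2 called 19 genes higher and 3 lower on HFD, with Fbxo32 as 1 of them. Fbxo32 had an edgeR log2 fold change of 1.22 (SE 0.19, adjusted p = 0.642).

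**Figure D3:**
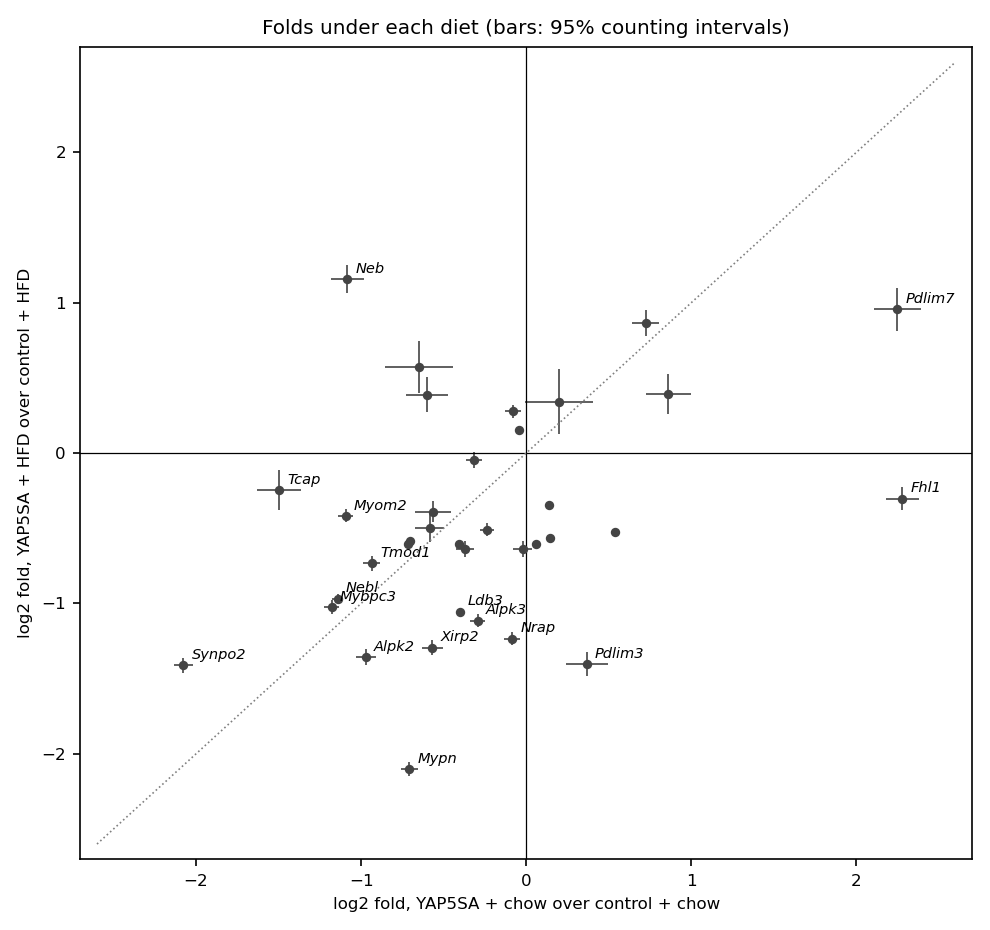
Log2 fold of YAP5SA over control on chow (horizontal) and HFD (vertical) for the 36 genes with a mean of at least 10 CPM, 1 library against 1, with bars for exact 95% counting intervals; names are given where a fold reaches 0.9 in size, and the dotted line marks equal folds. Synpo2, Mybpc3, Nebl and Alpk2 lie low on both axes, while Neb at −1.08 and 1.16 and Fhl1 at 2.28 and −0.30 go opposite ways.

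The cardiomyocyte nuclei of the 2 arms lay largely in different clusters, and the levels of these genes differed between the clusters. Clusters 5 and 6 held 63.3, 15.1, 39.7 and 4.55% and 26.9, 3.69, 52.1 and 2.94% of the cardiomyocyte nuclei of the 4 libraries, while clusters 26 and 27 held 0, 20.5, 0 and 11.8% and 0, 22.7, 0.0333 and 8.12%. Cluster 26, led by Cemip, met the limit for its name exactly (6 of 15 cardiomyocyte markers). Of the 38 genes 25 were lowest there and 15 were highest in cluster 5. How many of all genes were placed so is not given here. The clusters were drawn from expression, so these are descriptions with no test. Ttn stood at 20285, 19678, 4699.7 and 9565 CPM in clusters 5, 6, 26 and 27, Synpo2 at 418, 519, 10.1 and 22.3 CPM and Xirp2 at 432, 255, 3.42 and 42.3 CPM. Pdlim7 and Fhl1 ran the other way, at 27.3, 22.7, 110.4 and 113 CPM and 80.2, 91.0, 352 and 206 CPM. Cluster 9, which held 3.79, 15.2, 1.50 and 50.3% of the nuclei, kept Ttn at 17556 CPM and had the highest Fbxo32 and Neb, at 189 and 148 CPM.

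Inside the clusters that both arms shared, the differences were mostly smaller in clusters 5 and 6 and larger in cluster 4. In cluster 5 the median log2 fold over the 36 genes was 0.24 on chow and −0.18 on HFD, and in cluster 6 it was 0.0042 and −0.28. In cluster 4, whose leading genes include the mitosis genes Ect2, Ska1, Anln and Hmmr (189, 259, 103 and 165 nuclei), it was −0.71 and −1.26, with 28 of the 36 lower on both diets. Medians and counts over all genes inside the clusters are not given here, so a shift common to all genes of a cluster is not told apart. Synpo2 in cluster 4 had a log2 fold of −3.29 under chow and −3.05 under HFD, but −0.039 under chow and 0.027 under HFD in cluster 6. Mybpc3 was lower in each of the 3, with −1.52 under chow and −1.76 under HFD in cluster 4, −0.42 under chow and −0.58 under HFD in cluster 5 and −0.53 under chow and −0.69 under HFD in cluster 6. Neb kept its opposite folds in all 3, for example −0.89 under chow and 1.38 under HFD in cluster 6. Over the 3 shared clusters together the chow median was 0.013, opposite in sign to that over all cardiomyocyte nuclei, and the HFD median was −0.65. The mix of the 3 still differed between libraries. Cluster 5 held 2240, 720, 1193 and 231 nuclei and cluster 6 held 950, 176, 1565 and 149, beside those of cluster 4. Neither these pooled medians nor the test over the shared clusters holds that mix constant.

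**Figure D4:**
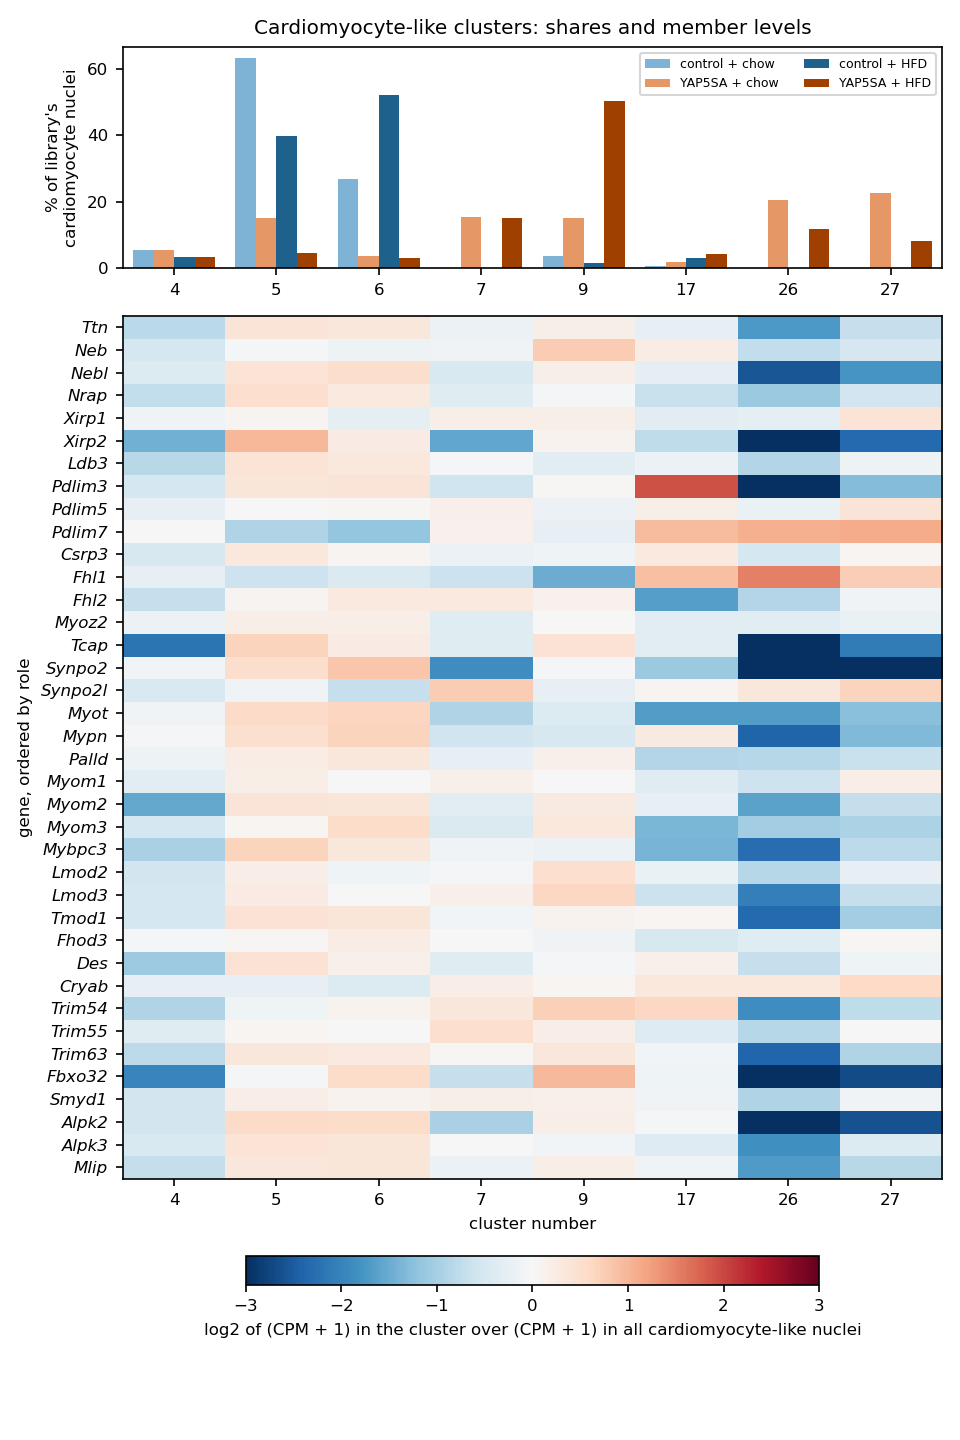
Upper part: share of each library's cardiomyocyte nuclei in the 8 clusters. Lower part: level of each gene in a cluster relative to all cardiomyocyte-like nuclei, as log2 of the ratio of CPM + 1, with colours that saturate at 3 in either direction. Controls fill clusters 5 and 6, and clusters 7, 26 and 27 hold nearly YAP5SA nuclei alone; cluster 26 is the darkest blue column.

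Sets of other genes of the same structures were also counted; they were chosen with earlier results of these data known. Of 20 other Z disc and M band genes tested (23 listed), 2 rose (10.0%, background 7.93%) and 2 fell (10.0%, background 4.39%), with a median log2 fold change of −0.40. Speg, a striated muscle kinase, stood at 386, 211, 404 and 228 CPM and fell (log2 fold change −0.92, SE 0.17, adjusted p = 0.0202). Tmod3, the widely expressed tropomodulin, stood at 27.0, 65.1, 24.2 and 68.6 CPM and rose (log2 fold change 1.31, SE 0.17, adjusted p = 0.00713), opposite to Tmod1. Mybph, a relative of myosin-binding protein C, stood at 0.301, 2.28, 0.293 and 3.21 CPM and rose (log2 fold change 3.11, SE 0.45, adjusted p = 0.0105), opposite to Mybpc3.

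Of 17 genes of sarcomere protein quality control 4 fell (23.5%, background 4.39%) and 0 rose (background 7.93%), with a median of −0.40. Asb2, a ubiquitin ligase subunit of muscle, stood at 340.4, 128, 453 and 169.6 CPM (log2 fold change −1.50, SE 0.23, adjusted p = 0.0116) and Fbxl22, an F-box protein of the Z disc, at 44.3, 15.4, 43.4 and 19.4 CPM (log2 fold change −1.41, SE 0.18, adjusted p = 0.00711). The small heat shock proteins Hspb6 and Hspb8 also fell (log2 fold change −1.46, SE 0.27, adjusted p = 0.0224 and log2 fold change −1.24, SE 0.29, adjusted p = 0.0425). Of 13 relatives from outside the sarcomere 3 rose (23.1%, background 7.93%) and 0 fell (background 4.39%), with a median of 0.69. Pdlim2 and Tes, a PDZ-LIM and a LIM protein of the actin cytoskeleton, rose from low levels (log2 fold change 3.53, SE 0.54, adjusted p = 0.0124 and log2 fold change 2.80, SE 0.43, adjusted p = 0.0122). Of 11 regulators of sarcomere genes none passed in edgeR's test; their median was −0.28.

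Outside cardiomyocytes most of the 38 stood at a small share of their cardiomyocyte level. In droplet data, RNA set free from broken cells gives UMIs in nuclei that do not express a gene, and such UMIs are not told apart from expression here. The median gene stood at 5.90% of its cardiomyocyte CPM in fibroblast-like nuclei and at 5.67% in endothelial-like nuclei (26 of 38 under 10% in each). Ttn UMIs were found in 40.4, 22.6, 38.2 and 19.8% of fibroblast-like nuclei thinned to 2000 UMIs each. Mybpc3 was seen in 66.9, 37.0, 57.9 and 34.1% of thinned cardiomyocyte-like nuclei (92.8, 61.8, 88.1 and 60.2% unthinned, at median depths of 5795, 5001, 6008.5 and 4901 UMIs) and in 5.56, 2.83, 3.43 and 2.34% of thinned fibroblast-like nuclei (9.46, 4.83, 8.61 and 4.05% unthinned, at 4088, 3646, 4234 and 3802 UMIs). Thinning left out 74, 120, 48 and 118 cardiomyocyte-like and 56, 111, 101 and 185 fibroblast-like nuclei that were shallower.

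Several of the 38 were higher elsewhere than in cardiomyocytes in every library. Synpo2 stood at 1582, 1102, 1893 and 2071 CPM in smooth muscle-like nuclei and Pdlim3 at 365, 472, 629 and 587 CPM in endocardial-like nuclei. Fhl1 stood at 261, 213, 355 and 166 CPM in fibroblast-like and Pdlim7 at 103, 172, 118 and 131 CPM. In fibroblast-like, endocardial-like, endothelial-like, pericyte-like and smooth muscle-like nuclei alike, Pdlim7 exceeded its cardiomyocyte level in every library. In cardiomyocyte nuclei the marker sums of these classes did not all move alike. The endocardial sum was higher with YAP5SA under both diets, as Pdlim7 was, with Adgrg6 and Npr3 as its largest rises. The fibroblast sum (277, 213, 417 and 295 CPM) and the pericyte sum (472, 178, 428 and 245 CPM) were lower under both. The endothelial sum stood at 78.2, 80.7, 107 and 90.0 CPM. The smooth muscle sum was higher on chow (163 and 702 CPM) and not on HFD (197 and 186 CPM). Acta2 made up most of it (155, 659, 188 and 164 CPM), and the other 4 markers were higher under both diets. The part of these shifts in the rise of Pdlim7 was not tested. The unnamed clusters, which hold mixed markers, had a median of 32.9% and were not used.

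In fibroblast-like nuclei 10 of the 35 genes tested fell (background 5.63%) and 0 rose (background 6.97%; 885 of all genes rose with DESeq2, again 0 of these). The 10 were Mybpc3, Mlip, Nebl, Ldb3, Ttn, Alpk3, Xirp2, Synpo2, Fhl1 and Pdlim3. In the same edgeR test 18 of the 35 had an unadjusted p under 0.05, as did 4326 of all 15388 genes tested. Ttn stood at 459.8, 265, 582 and 382 CPM (log2 fold change −0.81, SE 0.19, adjusted p = 0.0262). In the same nuclei 11 of 15 cardiomyocyte markers were lower in both YAP5SA libraries and 8 fell, with sums of 6398, 4604, 7159 and 4728 CPM and none at 0, and the part of RNA from cardiomyocytes was not tested. Fhl1, which fibroblasts express above cardiomyocytes, stood at 261, 213, 355 and 166 CPM and fell (log2 fold change −0.82, SE 0.19, adjusted p = 0.0267), opposite to its cardiomyocyte fold on chow. Pdlim3 fell too, from 112 and 173 CPM in the controls to 87.4 and 83.2 CPM. The fibroblast-like nuclei of the 2 arms also lay largely in different clusters. Cluster 1, with Tnc and Col8a1 among its leading genes, held 32, 667, 70 and 1076 nuclei, and cluster 2 held 669, 150, 1061 and 358. Cluster 3 held 235, 12, 667 and 75 nuclei and cluster 15 held 65, 294, 99 and 563. The part of this shift in the falls of these genes was not tested. With a stricter nucleus filter, or without control + HFD, 2 fell.

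**Figure D5:**
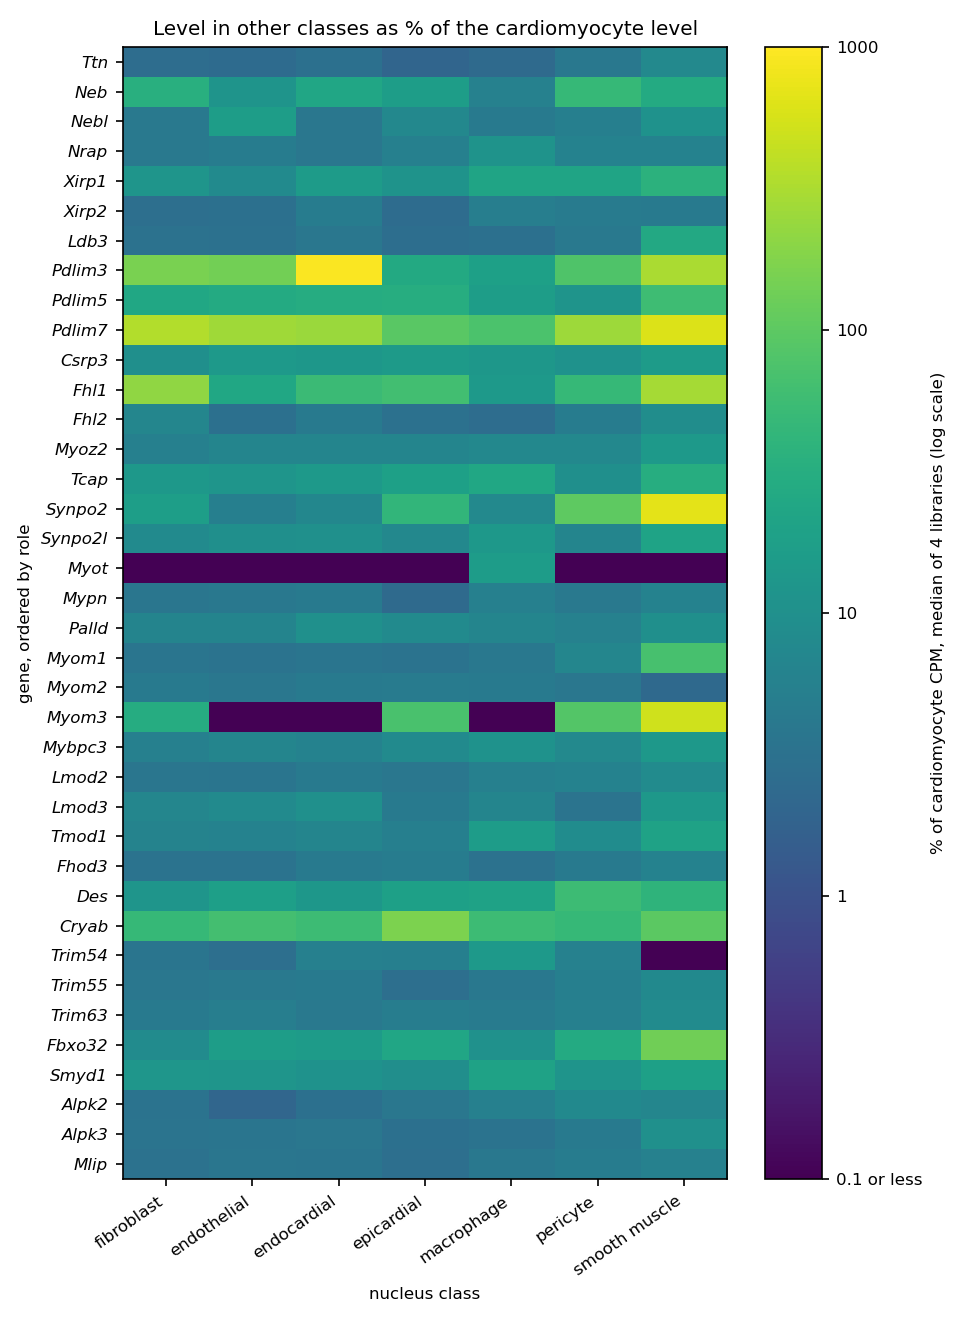
Level of each gene in 7 other classes of nuclei as a percentage of its cardiomyocyte CPM, median of the 4 libraries, on a log colour scale. Most cells lie under 10%; Pdlim7 is above 100% in fibroblast-like and smooth muscle-like nuclei, and Pdlim3 in endocardial-like nuclei reaches 936%.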

How the data were processed

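Single-nucleus 10x 3' libraries (1 per group, 4 in all) were deposited as count matrices of UMIs per gene and nucleus; the submitters' processing notes name Cell Ranger 7.1.0 and the build mm10, and neither they nor the labels say whether intronic reads were counted. From these deposited counts, nuclei with at least 500 genes and at most 5% mitochondrial UMIs were kept, doublets were removed by Scrublet scores (in 2 libraries by the top scores, since the automatic threshold marked under 0.5%), and 3000 variable genes, 30 components, 15 neighbours and Leiden resolution 1 gave 28 clusters (scanpy 1.11.5). Barcodes shared by 2 libraries numbered 11 to 34. Clusters were named from marker lists holding none of the 38 genes, with naming limits set after seeing the clusters: at least 3 markers present, and a share of them at least 2.0 times that of any unrelated list. At most 1 of a cluster's 10 leading genes could mark an unrelated class, erythroid aside. A cluster of low UMIs also needed a marker of its own among those genes. UMIs were summed per class and library and tested with edgeR 4.0.16 (TMM, filterByExpr, quasi-likelihood, Benjamini-Hochberg threshold 0.05). Folds of 1 library against 1 used a prior count of 0.5 and exact binomial intervals, which cover counting error only. Alternatives included DESeq2 1.42.0. Only the edgeR test of vector in cardiomyocyte-like nuclei was tried on simulated data, and its outcome is not reported here. Gene coordinates are from GENCODE for mm10.

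The 38 genes, the role groups and the other lists were chosen with earlier results of these data known. All 38 genes are accounted for; of the other lists, the rule was to name up to 4 called genes with the largest fold change. Some called genes of the other lists are not reported here by name.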

Additional observations from a re-analysis of the deposited data

Results flagged for a closer look

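In 11 genes the YAP5SA folds of the 2 diets pointed in opposite directions, with both counting intervals clear of 0. The number of all genes that did so is not given here. These folds were scaled by library totals alone, and counting intervals do not cover the choice of scaling. It matters most for small folds such as those of Trim55, −0.041 on chow and 0.15 on HFD. With 1 library a group the difference was not tested, and only YAP5SA + chow was male. The log2 fold on HFD minus that on chow was 2.24 for Neb, 1.22 for Trim54, 0.99 for Lmod3, 0.36 for Lmod2 and 0.19 for Trim55, which were lower on chow and higher on HFD. It was −2.58 for Fhl1, −1.77 for Pdlim3, −1.06 for Pdlim5, −0.71 for Fhl2, −0.66 for Fhod3 and −0.48 for Myom1, which were higher on chow and lower on HFD. In these last 6, control + HFD was above control + chow by a log2 fold of 1.63, 2.27, 0.75, 0.49, 0.26 and 0.24.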

How the results depend on the processing

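Of the 38 genes, 2 rose and 6 fell in the test of vector. The number that rose was 1 with a mean CPM of at least 10 or with diet as a second term, and 0 without the Cemip-led cluster or over the shared clusters, 2 settings chosen after seeing the data. The number that fell was 15 with DESeq2 and 16 with no filter on low counts. Leaving out 1 library gave 0 to 2 that rose and 3 to 10 that fell. Single genes had 555 values with the direction and the side of the threshold as reported, 20 that lost the call, 40 that gained it and 29, in 10 genes that were not called, with the opposite sign. The latter log2 fold changes were, for Neb, −0.036 with diet as a second term and −0.78 to 0.61 over left-out libraries; for Trim54, 0.068 with a mean CPM of at least 10, 0.0054 with finer clustering, 0.20 without the Cemip-led cluster, 0.0003 with the 38 left out of the variable genes, 0.0064 with a stricter nucleus filter and 0.0997 with library totals. For Trim55 they were 0.037, 0.12, 0.0017 and 0.048 under the matching settings, for Lmod2 −0.013 without doublet removal, and for Lmod3 0.068 without the Cemip-led cluster and 0.011 over the shared clusters. Over left-out libraries the ranges were −1.76 to 0.58 for Pdlim3, −0.47 to 0.35 for Pdlim5, −0.42 to 0.0083 for Myom1, −0.56 to 0.0005 for Fhl2, −0.11 to 0.11 for Lmod2, −0.49 to 0.084 for Lmod3, −0.68 to 0.41 for Trim54, −0.20 to 0.12 for Trim55 and −1.27 to 0.17 for Fbxo32. In fibroblast-like nuclei 2 fell with the stricter filter, and leaving out 1 library gave 0 to 1 that rose and 2 to 15 that fell. For diet, DESeq2 called 1 of the 38 higher.

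Against 1 library, the chow median was −0.17 without the Cemip-led cluster and 0.013 over the shared clusters, where 4 were at least 2-fold higher and 0 lower; without the Cemip-led cluster 3 were 2-fold lower, and with a floor of 50 CPM 1 was 2-fold higher. The HFD median was −0.73 with TMM-scaled CPM, where 0 were 2-fold higher, −0.44 without the Cemip-led cluster and −0.65 over the shared clusters. The cause of these shifts was not tested. The labels carry no replicate numbers; the fit with diet as a second term, which sets YAP5SA against control within each diet, called 1 higher and 6 lower. Myot and Myom3, with at most 108 UMIs in a library, are limited by depth, and 2 libraries an arm limit every test.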

Other observations

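The atrial-like cluster (20, 94, 95 and 210 nuclei) differed from cluster 5 in the levels of several of the 38 genes. Pdlim3 stood at 291 CPM there, against 99.2 CPM in cluster 5, the largest cardiomyocyte-like cluster, and it was the 1 gene of the 38 that was highest in the atrial-like cluster. Fhl2 stood at 1847 CPM against 6206, Mybpc3 at 129 against 547, and Palld at 2350.4 against 5039 CPM. Low Mybpc3 and Palld were not particular to it. In clusters 26 and 27, which hold nearly YAP5SA nuclei alone, Mybpc3 stood at 69.2 and 197 CPM and Palld at 2388 and 2755 CPM. Fhl2 and Palld were lowest in the atrial-like cluster, 2 of 6 such genes. Smooth muscle-like nuclei (38, 49, 109 and 104) held Myom1 at 1029.8, 844, 1288 and 1043 CPM and Des, which smooth muscle also expresses, at 31.5, 26.4, 41.1 and 34.4 CPM. These are values of clusters drawn from expression and were not tested.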
